A study of Mus musculus with 2 samples.

Results

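The 34 genes described here copy the DNA or carry out cell division, and they were chosen by name from the gene probes of the arrays, where they are 34 of 29875 named genes and 48 of 39429 probes. They comprise 14 genes of DNA replication and its start, 17 genes of mitosis, and the 3 D cyclins. They were measured in total RNA of mouse ureters dissected from NMRI embryos at stage E14.5. Each of 2 two-colour arrays held a sample labelled Smad4cKO (UE), whose genotype is given as Pax-cre/+;Smad4(fl/fl), beside a control labelled Smad4(fl/?). The series title names the driver Pax2-cre, and the second Smad4 allele of the control is written as a question mark, so control embryos carried at least 1 floxed allele. Replicate 1 was female with the knockout in Cy3 and the control in Cy5. Replicate 2 was male with the knockout in Cy5 and the control in Cy3. Sex, dye orientation and replicate changed together and cannot be told apart. The sources used here do not give how many embryos a sample holds or which cells the driver recombined. Nothing in the labels says that the replicates came from separate litters. The p-values therefore reflect only differences between these arrays, with a variance that limma pools largely over genes.

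A dividing cell copies its DNA in S phase and separates the copies in mitosis. D cyclins answer growth signals in G1 and, with their kinases, release E2F factors from the retinoblastoma proteins, after which E2F switches on replication genes. Mitosis genes are held down earlier in the cycle by the DREAM complex at the CHR element, and rise in G2 when MuvB acts there with B-MYB and FOXM1 while NF-Y binds the CCAAT box. In the embryonic ureter both the inner epithelium and the surrounding mesenchyme divide while the organ grows, and SMAD4 is the shared partner of the SMAD proteins that carry BMP and TGF-beta signals.

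Promoters of both groups are shown first because E2F and CHR letters are known marks of replication and mitosis promoters, and reading them uses no array value. RefSeq's promoter table (GRCm38.p6, 250 bases before to 50 after each start site, 32851 promoters) held 28 promoters of 26 of the 34 genes, with 13 promoters of 12 replication genes (Mcm7 has a pair) and 13 of 13 mitosis genes. Motifs were searched on both strands. They were the E2F site written as TTTGGCGC, TTTCCCGC, TTTCGCGC or TTTGCCGC, the CHR element as TTTGAA or TTCGAA, and the CCAAT box as CCAAT. An E2F site was found in 6 of 13 replication promoters, in 1 of 13 mitosis promoters and in 2.26% of all promoters. The CHR letters were found in 2 of 13 replication promoters, in 10 of 13 mitosis promoters and in 19.2% of all promoters. CCAAT was found in 9 of 13, in 11 of 13 and in 37.4% of all. The difference between the groups was not tested. These matches describe letters and are not measured binding, and neither motif was in all promoters of its group. In the windows below, which lie upstream of the start site, capitals mark every match to the searched motifs, with overlapping matches run together. Mcm6 and Mcm5 were chosen as replication genes with E2F matches, Cdk1 as the mitosis promoter that holds all 3 kinds, and Cdc20, Kif11 and Ube2c as mitosis genes with a CHR match upstream of the start.
Mcm6 (chr1:128359707-128359823, minus strand): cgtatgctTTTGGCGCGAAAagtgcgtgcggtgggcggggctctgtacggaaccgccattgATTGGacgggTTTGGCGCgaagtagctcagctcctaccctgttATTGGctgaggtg
Mcm5 (chr8:75109348-75109499, plus strand): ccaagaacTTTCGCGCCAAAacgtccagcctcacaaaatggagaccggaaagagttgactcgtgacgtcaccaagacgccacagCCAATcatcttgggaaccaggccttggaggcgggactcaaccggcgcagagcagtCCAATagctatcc
Cdk1 (chr10:69352914-69353051, minus strand): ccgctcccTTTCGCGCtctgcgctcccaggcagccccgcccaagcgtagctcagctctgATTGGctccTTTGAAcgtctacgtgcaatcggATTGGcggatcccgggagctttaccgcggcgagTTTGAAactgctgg
Cdc20 (chr4:118437344-118437404, minus strand): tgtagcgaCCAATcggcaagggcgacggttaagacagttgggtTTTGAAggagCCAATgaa
Kif11 (chr19:37376329-37376376, plus strand): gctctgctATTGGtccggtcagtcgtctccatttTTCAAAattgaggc
Ube2c (chr2:164769766-164769913, plus strand): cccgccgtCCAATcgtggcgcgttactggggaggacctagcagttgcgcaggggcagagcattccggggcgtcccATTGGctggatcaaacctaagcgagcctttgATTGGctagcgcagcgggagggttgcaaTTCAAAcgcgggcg
In Mcm6 the E2F letters stood at positions -110, -106 and -47 counted from the start site, the first pair overlapping on opposite strands, and in Mcm5 they overlapped at -153 and -149. Cdk1 held E2F letters at -131 and CHR letters at -71 and -15. The CHR match nearest to the start stood at -18 in Cdc20, -19 in Kif11 and -29 in Ube2c, with the nearest CCAAT match upstream of it starting 35, 26 and 28 bases earlier.

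All values are log2 intensities after background correction and normalisation within and between arrays, and a log2 ratio is labelled knockout minus control on the same array, so that positive means higher in the labelled knockout. The authors' deposited table, read in the order of the titles, runs the other way, since its signed log2 correlated with knockout over control at -0.822 on replicate 1 and -0.739 on replicate 2 across probes. Whether that table or the dye labels are turned was not determined. Every direction given here rests on the dye labels and would reverse if they were exchanged on both arrays. Of the 48 probes, 47 were kept as above background, which left 33 of the 34 genes among 20104 genes tested. Ccne2, a cyclin E gene, was not tested because its probe was well above background on 0 of 4 spots in 3 channels and on 2 of 4 in the control of replicate 2. With limma and Benjamini-Hochberg adjustment over all genes, 66 genes passed at 0.05 (0.328% of those tested), of which 46 were higher and 20 lower in the labelled knockout. None of the 33 replication, mitosis and D cyclin genes was among them, in either direction, and at an unadjusted p under 0.05 there were also 0, against 4.55% of all genes. The smallest unadjusted p in limma was 0.069, for Cdt1, and every member's adjusted p was 1. At least 1.5-fold in the same direction on each array was reached by 0 members and by 0.368% of all genes.

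For the average over whole ureters, the uncertainty of each mean is described by the 95% intervals of limma's moderated fit. A change in the epithelium or the mesenchyme alone, or opposite changes in them, could be larger and was not measured. With the main processing (normexp and loess), all 33 lay within 1.5-fold of no change, as did those of 94.8% of all genes tested. The lowest bound was -0.52 for Cdt1, which is 1.44-fold lower, and the highest was 0.45 for Nusap1, which is 1.36-fold higher. The mean change was under 1.1-fold for 22 genes and under 1.2-fold for all 33. These intervals rest on 2 arrays, with 1 residual degree of freedom and a prior of 9.21 pooled over genes. Intervals were not computed under other processing. There the mean of Aurkb reached -0.42 from the authors' values (limma unadjusted p = 0.0167). With median centring the arrays lay further apart for some members, as for Ccnd1 at -0.58 and 0.24. Because whole ureters were profiled, fewer dividing cells and less RNA per cell cannot be told apart. The plot of member ratios shows both arrays of each gene beside its interval.

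**Figure D1:**
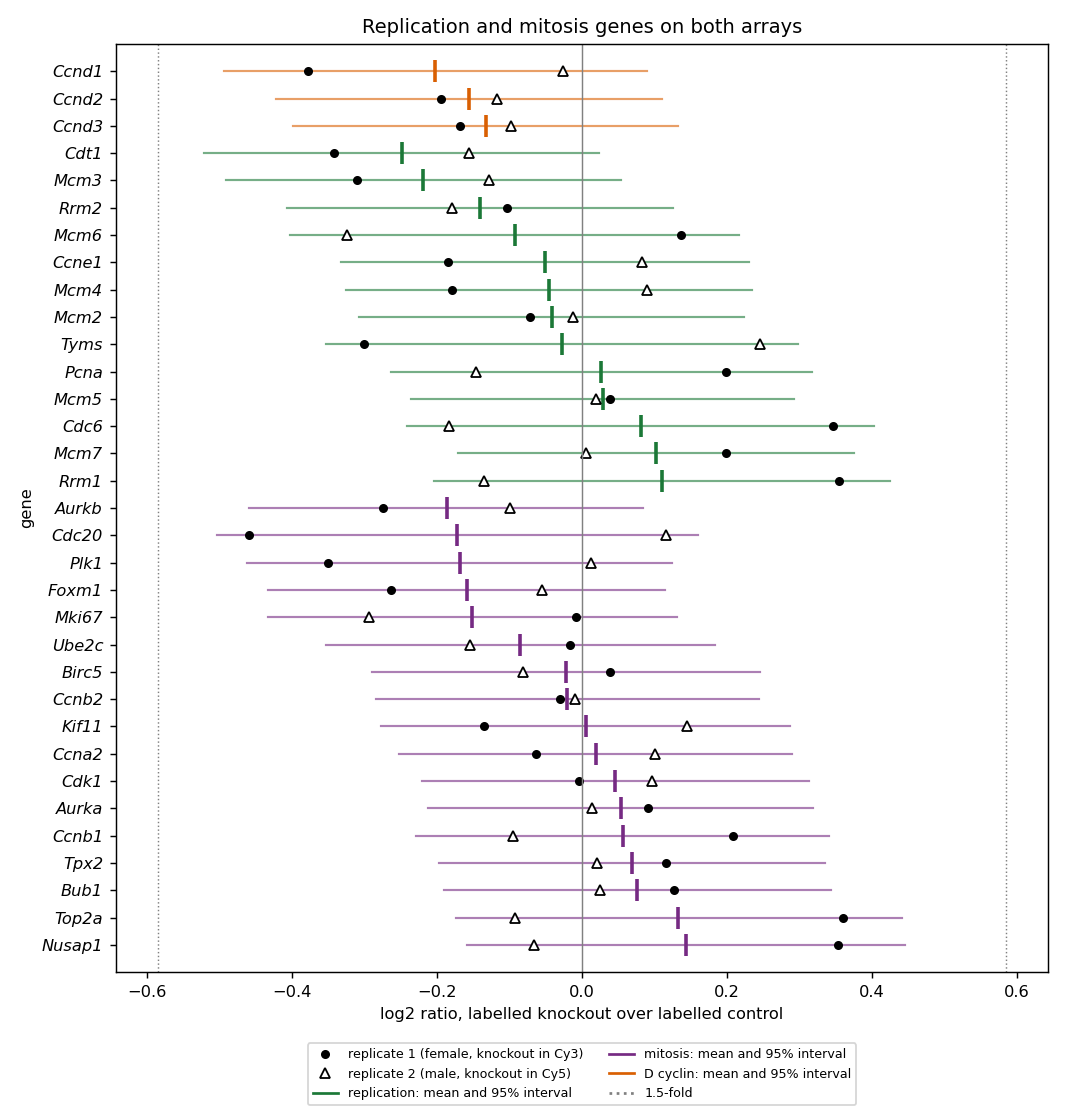
Log2 ratio of labelled knockout over control (x axis) for the 33 tested genes (y axis), with replicate 1 as dots, replicate 2 as triangles, the mean as a tick and limma's 95% interval as a line coloured by group; dotted lines mark 1.5-fold. With the main processing (normexp and loess), all intervals cross 0 and lie inside 1.5-fold, with means from -0.25 (Cdt1) to 0.14 (Nusap1).

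Across all 33 genes the median of the mean log2 ratios was -0.028, beside -0.004 for all genes tested. It was -0.042 for the 13 replication genes, 0.005 for the 17 mitosis genes and -0.156 for the 3 D cyclins. Below 0 on both arrays were 12 of 33 members, against 24.6% of all genes, and above 0 on both were 5, against 21.7%. With arrays centred on the median and no loess, 2 of 33 members and 17.3% of all genes lay below 0 on both. By group, below 0 on both arrays were 4 of 13 replication genes, 5 of 17 mitosis genes and all 3 D cyclins. The other 16 members had opposite signs on the arrays, which is 48.5% of members and 53.7% of all genes.

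The D cyclins start the cycle by activating CDK4 and CDK6. Ccnd1 had a level of 14.39 in the knockout and 14.77 in the control on replicate 1, and 14.51 and 14.53 on replicate 2. Its probe lies at chr7:152116202-152116261 (mm9, the build of the array design). The mean log2 ratio was -0.20 ± 0.25 (SD, n = 2 arrays), with an interval from -0.49 to 0.09 and nearly all of the difference on replicate 1. Ccnd2 stood at 14.31 in the knockout on both arrays, with ratios to the control of -0.19 and -0.12, a mean of -0.16 ± 0.053. Ccnd3 stood at 15.68 against 15.85 and at 15.62 against 15.72, a mean of -0.13 ± 0.05, and its other probe gave -0.067 and -0.054. All 3 thus lay lower in the knockout channel on both arrays, by 1.1-fold to 1.15-fold in the mean, and none passed the test (limma unadjusted p from 0.153 to 0.291, adjusted p = 1). This pattern depends on the processing. With arrays centred on the median and no loess, the ratios were -0.58, -0.38 and -0.48 on replicate 1 but 0.24, 0.12 and 0.32 on replicate 2. With the scanner's processed signals and the same loess, Ccnd1 was 0.023 on replicate 2. Their means stayed below 0 under all 11 settings that use both arrays. Quantile normalisation between arrays, both other filters, the trended prior and the unpaired channels left these means unchanged. Median centring shifted the arrays in opposite directions, which largely cancels in the mean, so this count adds little.

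Replication begins where CDC6 and CDT1 load the MCM2 to MCM7 ring, the helicase that unwinds DNA. Cdt1 had the lowest mean of all members. Its level was 13.99 in the knockout and 14.33 in the control on replicate 1, and 13.96 against 14.12 on replicate 2. The mean log2 ratio was -0.25 ± 0.13 (SD, n = 2), a 1.19-fold lower value that did not pass (limma adjusted p = 1), from a probe at chr8:125096893-125096952 (mm9). The ratio lay below 0 on both arrays with loess, whereas with median centring it was -0.51 on replicate 1 and 0.044 on replicate 2. Cdc6, the partner of Cdt1, had 2 probes that went against each other and is described with the probes.

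Of the 6 MCM genes, 2 lay below 0 on both arrays, 2 above, and 2 on opposite sides. Mcm3 was 14.82 against 15.13 on replicate 1 and 14.79 against 14.92 on replicate 2, a mean of -0.22 ± 0.13 (limma adjusted p = 1), though median centring put replicate 2 at 0.18. Mcm7 went the other way, with 14.81 against 14.61 and then 14.71 in both channels, a mean of 0.10 ± 0.14. Subunits of the same ring sat on both sides of 0. Mcm6 was 15.93 against 15.79 on replicate 1 and 15.65 against 15.98 on replicate 2, so the arrays disagreed in sign. Mcm4 also disagreed, at -0.18 and 0.089. Mcm2 had ratios of -0.072 and -0.012 and Mcm5 of 0.038 and 0.019, the smallest means of the ring. The MCM median was -0.044, and the largest mean of any subunit was under 1.2-fold.

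Pcna encodes the sliding clamp that holds polymerases on DNA. Its level was 15.97 against 15.77 on replicate 1 and 15.89 against 16.03 on replicate 2, giving opposite ratios of 0.20 and -0.15. The nucleotide genes were as divided. Rrm1, the large subunit of ribonucleotide reductase, had ratios of 0.36 and -0.14, while Rrm2, its small and S-phase-limited subunit, had -0.10 and -0.18, with a mean of -0.14 ± 0.053. Tyms, the thymidylate synthase that makes dTMP, stood at 8.99 against 9.29 on replicate 1 and at 9.37 against 9.13 on replicate 2. Ccne1, whose cyclin E drives entry into S phase, had ratios of -0.19 and 0.083. None of these passed, and their means ran from -0.14 (Rrm2) to 0.11 (Rrm1).

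The kinase and cyclins of mitotic entry had means between -0.021 and 0.056. Cdk1, the mitotic kinase, was 12.69 against 12.70 on replicate 1 and 13.03 against 12.93 on replicate 2. Ccnb2, a cyclin B, was 14.65 against 14.68 on replicate 1 and differed by -0.010 on replicate 2, and its mean of -0.021 ± 0.015 had an interval from -0.29 to 0.24. Ccna2, cyclin A, had ratios of -0.064 and 0.10. Ccnb1, the main cyclin B, had 0.21 and -0.096 with its brightest probe. Foxm1, the transcription factor of G2 and mitosis genes, was 10.68 against 10.94 on replicate 1 and 10.64 against 10.69 on replicate 2, a mean of -0.16 ± 0.15 (limma adjusted p = 1), and its other probe gave 0.003 and -0.061.

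Among the mitotic kinases, Plk1 was 14.10 against 14.45 on replicate 1 but 14.06 against 14.05 on replicate 2, so the whole difference lay on replicate 1. Aurka, which matures spindle poles, had ratios of 0.091 and 0.014, and Bub1, a spindle checkpoint kinase, 0.13 and 0.025. Aurkb, the kinase of the chromosomal passenger complex, was 7.36 against 7.63 and 7.22 against 7.32 from a dim probe, with a mean of -0.19 ± 0.12 (limma adjusted p = 1). This value moved with the processing. It was -0.23 with no background correction and -0.27 with a normexp offset of 0, which change the background alone. It was -0.38 with the scanner's processed signals (limma unadjusted p = 0.0257, adjusted p = 0.573) and -0.42 from the authors' deposited table (limma unadjusted p = 0.0167, adjusted p = 0.471). The processed signals carry the scanner software's own corrections and were then loess-normalised as in the main processing. The scaling of the authors' values is not stated. All of these Aurkb values lay below 0 on both arrays. Birc5, survivin of the same complex, had 0.038 and -0.082 with its brightest probe.

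Spindle genes lay on both sides of 0. Kif11, the motor that pushes spindle poles apart, had ratios of -0.14 and 0.15, and its mean of 0.005 was the nearest to 0 of all members. Tpx2, which activates Aurora A on the spindle, had 0.12 and 0.021. Nusap1, a spindle microtubule binder, had the highest mean of the members. Its level was 12.85 against 12.49 on replicate 1 and 12.68 against 12.75 on replicate 2, a mean of 0.14 ± 0.30 (limma adjusted p = 1). Top2a, the topoisomerase that untangles sister chromosomes, followed the same course, with 12.62 against 12.26 and then 12.54 against 12.63. Both were higher in the knockout only on replicate 1.

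Exit from mitosis depends on the anaphase-promoting complex. Cdc20, its activator, was 14.28 against 14.74 on replicate 1 and 14.46 against 14.35 on replicate 2, at chr4:118105534-118105593 (mm9). That first ratio of -0.46 was the largest of any member on either array, 1.38-fold, and the second had the opposite sign, so the mean was -0.17 ± 0.41. Ube2c, the ubiquitin-conjugating enzyme of the complex, had -0.016 and -0.16. Mki67, whose Ki-67 protein coats mitotic chromosomes and marks cycling cells, was 15.18 against 15.19 on replicate 1 and 14.94 against 15.23 on replicate 2. Its mean was -0.15 ± 0.20, and with this probe nearly all of it came from replicate 2. The other Mki67 probe gave -0.060 and -0.126.

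With the main processing, whose loess balances the dyes, opposite signs were as many towards Cy3 as towards Cy5. The arrays had swapped dyes, so a gene above 0 on replicate 1 and below 0 on replicate 2 was brighter in Cy3 on both. This held for 8 members, with Top2a, Nusap1, Rrm1, Cdc6, Ccnb1, Pcna, Mcm6 and Birc5 among them, and 8 others were brighter in Cy5 on both, with Cdc20, Plk1, Tyms, Ccne1, Mcm4, Kif11, Ccna2 and Cdk1. Over all genes the shares were 26.5% and 27.1%. With median centring in place of loess, 1 member was brighter in Cy3 on both arrays and 24 were brighter in Cy5, beside 15.1% and 43.0% of all genes. Across the 33 genes the ratios of the arrays had a Pearson r of -0.32, and across all genes 0.017, where genes are not independent replicates and share both arrays and both dyes. Whether dye, sex or the samples set these signs cannot be told apart. The plot of both arrays places the members inside the cloud of all genes.

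**Figure D2:**
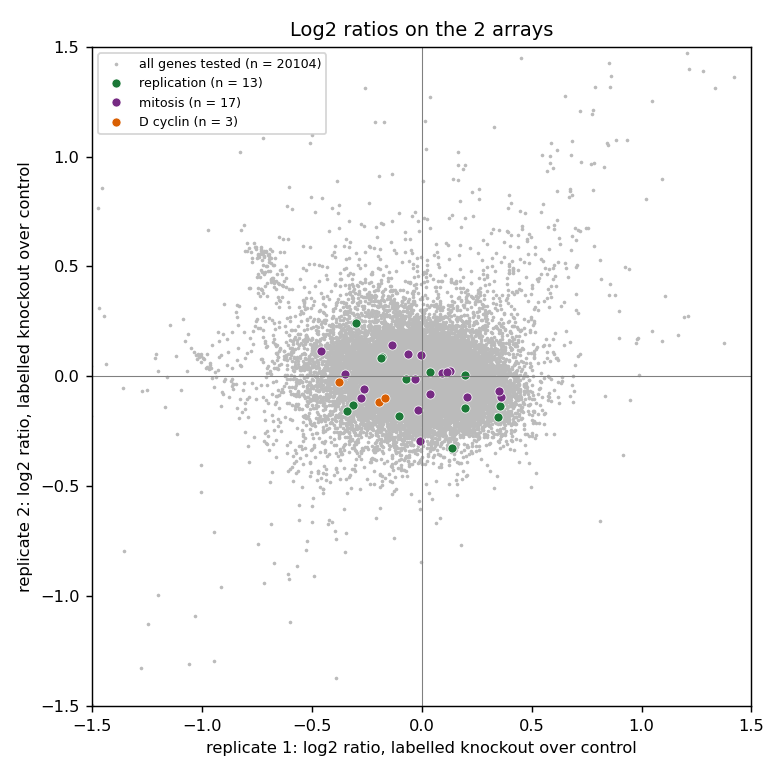
Log2 ratio of labelled knockout over control on replicate 1 (x axis) against replicate 2 (y axis) for all 20104 genes tested (grey) and the members coloured by group; 31 genes lie outside the axes at ±1.5. All members fall within -0.46 to 0.36 on replicate 1 and -0.32 to 0.25 on replicate 2. The 3 D cyclins sit below 0 on both with the main processing (normexp and loess). With the scanner's processed signals, also under loess, 2 of 3 did, and with median centring 0 did.

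For 11 members more than 1 probe was kept, 25 probes in all, which shows how far a value rests on the probe. The means of a gene's probes had the same sign for 8 of the 11 genes and differed for Cdc6, Birc5 and Tpx2. The spread between the means of a gene's probes had a median of 0.072 and reached 0.25 for Cdc6. At base 2337 of its transcript (chr11:98782986-98783045, mm9) the ratios were 0.35 and -0.18, and at base 4520 (chr11:98785169-98785228) they were -0.45 and 0.098. The brighter probe of Cdc6 lost 1 spot as an outlier on each array, and under the filter that asks for all 4 spots the other probe stood in, which turned the mean from 0.081 to -0.17.

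Ccnb1 also depended on the probe. Its brightest probe, at base 2228 (chr13:101548722-101548781, mm9), gave 0.21 and -0.096, whereas the probes at bases 846 and 532 lay above 0 on both arrays, with 0.40 and 0.077, and 0.27 and 0.17. Those probes lie on the minus strand at chr13:101551224-101551283 and chr13:101553449-101553508 (mm9). Their sequences are shown because they read other stretches of the same transcript and gave the highest means of any member probe.
Ccnb1 at base 846: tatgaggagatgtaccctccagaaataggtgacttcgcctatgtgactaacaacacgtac
Ccnb1 at base 532: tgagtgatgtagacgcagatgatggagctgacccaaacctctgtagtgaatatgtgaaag
For Birc5 the probes at bases 269 and 415 gave 0.21 and 0.23 on replicate 1, beside 0.038 at base 3336, with -0.088, -0.04 and -0.082 on replicate 2. The 3 probes of Cdk1 had the same pattern, with means from 0.046 to 0.074, but those at bases 1111 and 1130 share 41 bases. The pair of Mki67 probes gave -0.15 and -0.093 in the mean, and the pair of Ube2c probes -0.085 and -0.014. Those of Ccne1 gave -0.051 and -0.12, yet with signs reversed between the arrays, and the other probe of Tpx2 gave -0.016 beside 0.069.

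The 2 probes of Mcm3 are not separate stretches either. They overlap by 43 bases and differ there at 1 base, A14G, counted from 1 at the 5′ end of the 30 bases printed here with that base in capitals.
Mcm3 probe on the NM_008563 transcript: aagctttctttgcAattagactagtatgta
Mcm3 probe on the AK088142 transcript: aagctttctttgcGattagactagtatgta
They gave -0.25 and -0.099, and -0.31 and -0.13, so their like values come from nearly the same letters. The plot of all probes shows these pairs.

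**Figure D3:**
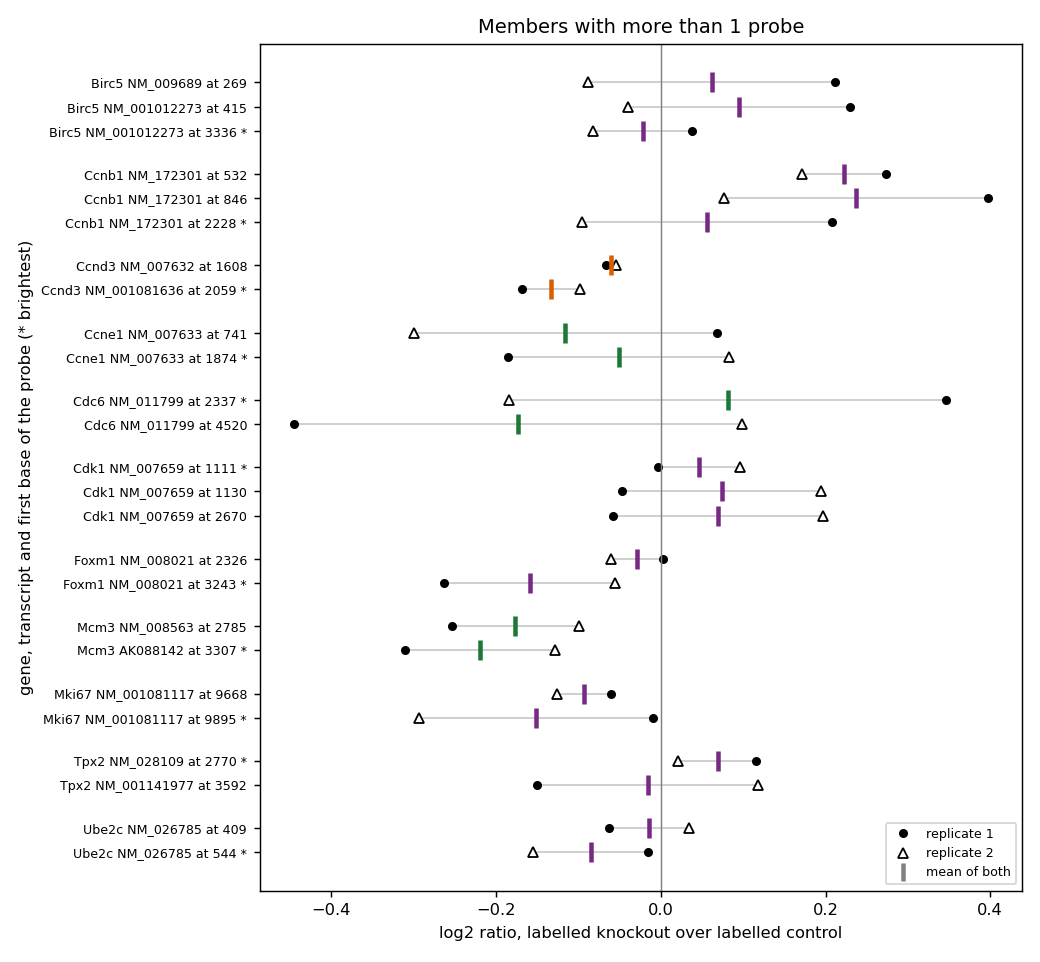
Log2 ratio of labelled knockout over control (x axis) for each kept probe of the 11 members with more than 1 probe (y axis: gene, transcript and first base of the probe, brightest starred), with replicate 1 as dots, replicate 2 as triangles and their mean as a tick. The probes of Cdc6 lie on opposite sides of 0 on each array, while those of Cdk1, Mki67 and Mcm3 have the same sign on each array.

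Other genes of the same pathways gave no call either. Of 44 other replication genes, 50 other mitosis genes, 24 regulators and 6 tested CDK inhibitors, 0 passed either way, against 0.328% of all genes. At an unadjusted p under 0.05, reached by 4.55% of all genes, there were Orc5 and Cdkn1a, both higher. Their unadjusted p in limma was 0.0365 and 0.0156. The list medians were 0.06, 0.036, -0.10 and -0.006 in that order. The other replication genes had a median of 0.17 on replicate 1 and -0.032 on replicate 2, where the replication members had -0.072 and -0.128. Named here are the genes farthest from 0 among those with the same sign on both arrays. In the origin and polymerase set, Orc5 of the origin recognition complex had a mean of 0.32 ± 0.28 (limma adjusted p = 1), Prim2 of primase 0.18 and Gins3 of the GINS complex 0.16. Below 0 on both arrays were the histone chaperone gene Chaf1a at -0.18, the ligase gene Lig1 at -0.18 and Timeless of the fork protection complex at -0.13. Among mitosis genes, Plk4 of centriole copying had 0.24, the checkpoint kinase gene Ttk 0.17 and the kinetochore gene Nuf2 0.14, while Incenp, the scaffold of the passenger complex that holds Aurora B, had -0.28, the phosphatase gene Cdc25b -0.24 and Gtse1 -0.20. Among regulators, E2f7 and E2f8, which repress E2F targets, had -0.27 ± 0.36 and -0.26 ± 0.37, with -0.53 and -0.52 on replicate 1 and -0.022 and -0.004 on replicate 2. Tfdp2, an E2F partner, had -0.17, and the pocket protein gene Rbl2, Cdk2 and Tfdp1 had 0.14, 0.064 and 0.046. Of the CDK inhibitors, Cdkn1a, which encodes p21 and halts cycling cells, had 0.26 and 0.45, a mean of 0.36 ± 0.13 (limma adjusted p = 0.762), with Cdkn2c at -0.16 and Cdkn2d at 0.04.

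**Figure D4:**
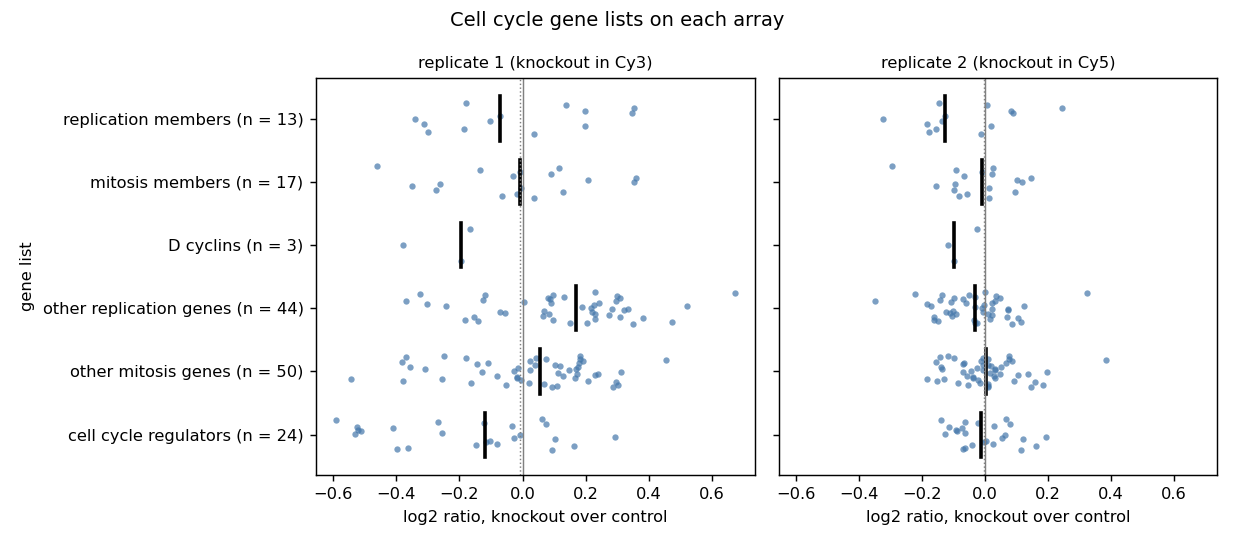
Log2 ratio of labelled knockout over control (x axis) on each array for the genes of 6 cell cycle lists (y axis), 1 dot a gene, with the list's median as a bar and the median of all genes as a dotted line. The other replication genes have a median of 0.17 on replicate 1 and -0.032 on replicate 2. The D cyclins lie below 0 on both with the main processing (normexp and loess). This did not hold for all 3 with processed signals, nor for any with median centring.

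Marker genes of cell types also differed between the channels. All 8 epithelial markers lay above 0 on both arrays (21.7% of all genes did). Upk1a and Upk3a passed, and 4 of the 8 had an unadjusted p under 0.05 in limma. The summed level of the 8 was 249800 in the knockout against 209100 in the control on replicate 1, and 221000 against 196900 on replicate 2. Of 6 mesenchymal markers 5 lay below 0 on both (24.6% of all genes) and 0 passed in limma, with 3 at an unadjusted p under 0.05 and sums of 256300 against 317900 and 251600 against 299900. Markers of neurons and glia ran 101800 against 147300 on replicate 1 and 118900 against 118400 on replicate 2, and erythroid markers 151800 against 217100 and 194100 against 188500. The sum of skeletal muscle markers was higher in the knockout on both arrays, at 17750 against 16880 and 15990 against 13680. Of these 6 genes, 4 lay above 0 on both and 1 below 0 on both. Their median log2 ratio was 0.779 on replicate 1 and 0.149 on replicate 2, more than the sums show on replicate 1. In limma 4 of the 6 had an unadjusted p under 0.05, all higher in the labelled knockout, and 0 passed. The nephron sum was also higher on both, at 8113 against 7484 and 9825 against 7285. Of the 3 nephron markers tested, 1 lay above 0 on both and 1 below 0 on both. The endothelial sum was lower on both, at 21420 against 23930 and 18000 against 21210. Of these 5 genes, 2 lay below 0 on both and 3 had opposite signs, with a median ratio of 0.04 on replicate 1. Smooth muscle markers were 19050 against 19370 and 18440 against 15540, and macrophage markers 14030 against 14510 and 16530 against 15760. Whether cell numbers or levels within cells differed was not tested. The part of these shifts in the ratios of the D cyclins and the other members was not tested. The Smad4 probe itself read -0.58 on replicate 1 and -0.08 on replicate 2 (limma adjusted p = 1), and whether it lies in the floxed part was not determined, so it does not check the labels. On each array 66.6% to 69% of probes were well above background in a channel, and with 2 arrays the precision is limited by their number.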

How the data were processed

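Spot intensity (mean signal and median local background of each channel) comes from the scanner software, Agilent Feature Extraction (version 10.7.3.1 per the submitters' processing notes), and was deposited per spot. The deposited files also hold processed intensity and flags. For each probe the authors deposited a score as well, a fold with a sign, and the sources used here do not state its scaling. It served as an alternative after its columns were turned to knockout over control.

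Here intensity was corrected by normexp (offset 50), loess-normalised within arrays (weight 0 for control spots) and averaged over the 4 spots of a probe without outlier spots (3.52% and 3.66%). A probe was kept if, for 1 genotype or both, its channel had 2 or more spots well above background on each array (26522 of 39429). The brightest probe stood for a gene. Genes were named through RefSeq (GRCm38.p6) where accession (28328 probes) or symbol matched, and coordinates are those of the array design (mm9); exons and untranslated regions were not used here. Printed levels were also quantile-normalised between arrays on the average intensity, which leaves ratios as they were. Ratios of both arrays were set against 0 with limma 3.58.1 under R 4.3.3 (two-sided). The fit was also run on simulated data drawn from limma's own variance model, with planted changes of 1.5-fold or more. Those data held no dye, sex or array effect, so they do not check the test for such effects or for smaller changes. Both arrays lay on the same slide.

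All tested members are given by value, and of other lists those that passed and up to 3 per direction with the same sign on both arrays. The members and lists were chosen with earlier results of these data known. Alternatives changed the background correction, normalisation, filter, probe rule, variance prior, values, pairing and arrays used.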

Additional observations from a re-analysis of the deposited data

Results flagged for a closer look

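Tyms, Cdc6 and Pcna had ratios beyond 1.1-fold in opposite directions on the female and the male array, and none passed limma's test. They are 3 of 33 members (9.09%), beside 9.34% of all genes. The log2 ratio on replicate 1 minus that on replicate 2 was -0.55 for Tyms, 0.53 for Cdc6 and 0.34 for Pcna. This difference was not tested, and sex, dye and replicate cannot be told apart. The other Cdc6 probe differed the other way, at -0.45 and 0.098.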

How the results depend on the processing

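No member passed under any of the 11 alternatives that use both arrays, and the lowest adjusted p of a member was 0.471 (Aurkb, authors' values). An unadjusted limma p under 0.05 was reached by 1 member each under 3 of them. These were Aurkb with processed signals and the authors' values, and Cdt1 with no filter on dim probes (unadjusted p = 0.0441). The counts over all genes moved more. Against 46 higher and 20 lower, they were 165 and 95 with processed signals, 82 and 33 with no background correction, 93 and 38 with an offset of 0, 111 and 45 with a trended prior, 126 and 65 from the authors' values, 20 and 9 with all 4 spots required, and 16 and 10 with unpaired channels. Median centring gave 0 and 0 (347 genes at an unadjusted limma p under 0.05), as did no filter (1097 genes). The median of the mitosis genes, 0.0049, became 0.00654 with processed signals, 0.00624 with no background correction, 0.00575 with an offset of 0, 0.0391 with median centring, 0.0186 with the mean over probes and -0.00348 with the authors' values, with -0.0101 to -0.00931 on single arrays. The replication median was -0.128 to -0.0722 on single arrays, and the D cyclin median -0.194 to -0.0981. Under the 7 alternatives with both arrays that change members' means at all, 218 of 224 member values moved by less than 1 SD between arrays. The other 6 moved by more (Aurkb and Ccnb2 under 2 each, Mcm5 and Ccnd3 under median centring). That SD is large where the arrays disagree, so the count does not show stability. Cdc6, with an SD of 0.374, counted as unmoved although its mean went from 0.081 to -0.17 with all 4 spots required. Probes near background, such as that of Aurkb, and the pair of arrays limit these values. The cause of these shifts was not tested.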
